A study of Mus musculus with 19 samples.

Results

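Hematopoietic stem and progenitor cells are sorted by a small set of surface proteins, and the RNA levels of 10 genes for such proteins are described here. The genes were taken by name from a list of markers used to sort or subdivide LSK cells and CMPs, and they are 10 of the 54352 genes counted in each library. All 10 passed the filter on low counts in every fit, so none is left out of any comparison. LSK cells (Lin- Sca1+ cKit+) hold the hematopoietic stem cells (HSCs) and multipotent progenitors, and CMPs are the common myeloid progenitors, taken from the Lin- Sca1- cKit+ cells. The study asked what depletion of the long noncoding RNA *Spehd* does to these cells after transplantation, and RNA from sorted cells was sequenced in 19 libraries.

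All 6 groups shared the same transplantation design. E-SLAM HSCs of C57BL6J mice (strain label C57BL6) of 9 to 12 weeks of age were transduced with a doxycycline-inducible lentiviral vector that marks shRNA expression with zsGreen, and were transplanted without competitor cells into sublethally irradiated C57BL/6-CD45.1; cKit-w41 mice. These hosts carry a Kit allele of reduced function, and the zsGreen gate takes transduced donor cells. The animals reconstituted for 10 weeks and were given doxycycline food for 6 days before zsGreen+ bone marrow cells were sorted. The groups were LSK cells with the control shRNA against *Renilla* luciferase (n = 4), with sh10 against *Spehd* (n = 3) or with sh20 against *Spehd* (n = 3), and CMPs with *Renilla* shRNA (n = 4), sh10 (n = 3) or sh20 (n = 2). Libraries are named by the letter their labels give. The labels do not tie the letters to separate animals, so the p-values measure the spread between these samples, which may in part be technical.

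Each of the 10 proteins has its own place in these gates. *Kit* encodes the receptor for stem cell factor, which both gates require, and *Ly6a* encodes Sca-1, a GPI-anchored protein that separates LSK cells from the Sca1- progenitors. *Cd34* encodes a sialomucin and *Fcgr3* and *Fcgr2b* encode an activating and an inhibitory low-affinity receptor for IgG, CD16 and CD32, which one antibody reads together as FcγR. CD34 and FcγR are the antigens by which CMPs are commonly told from granulocyte-monocyte and megakaryocyte-erythroid progenitors. *Procr* (EPCR, the endothelial protein C receptor), *Slamf1* (CD150) and *Cd48* belong to the E-SLAM sort of HSCs, in which EPCR and CD150 are present and CD48 is absent. *Esam*, an adhesion molecule of endothelial cells, stem cells and megakaryocytes, and *Eng* (endoglin, CD105), a co-receptor for TGF-β ligands, are further markers of stem cells that the bone marrow stain of this study did not include. Antibodies to cKit, Sca1, CD34 and FcγR were in the stain for progenitors, so RNA differences in *Kit*, *Ly6a*, *Cd34*, *Fcgr3* and *Fcgr2b* between LSK cells and CMPs describe populations that were chosen with the stained proteins.

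The shRNA guides are shown because they define the groups. They come from the study's list of hairpins and are written 5′ to 3′ as DNA, with the seed (bases 2 to 8) in capitals.
sh10: tACAAAGTcagcttttcctctc
sh20: tATGCTATgacaacccagggca
Renilla: tAGATAAGcattataattccta
None of the 141767 transcripts of GENCODE vM21 holds the full 22-base target of any of the guides, which includes every annotated transcript of the 10 genes. The level of *Spehd* was not analysed here, because its name is not among those of the counted genes. The seed match of sh10 occurs in the annotated 3′ UTR of 1 of the 10 genes, *Fcgr2b*, against 17.4% of 21685 coding genes. The seed match of sh20 occurs in 0 of the 10, against 8.85% of coding genes, and that of the *Renilla* shRNA in 1 of the 10, *Esam*, against 8.70%. Both sites are shown 5′ to 3′ on the strand of the gene, with the match in capitals.
Fcgr2b: acagagtaatcACTTTGTtatgtaacagg
Esam: tgtacaacaccCTTATCTaatgctgtcct
The capitals lie at chr1:170959976-170959982 on the minus strand for *Fcgr2b* and at chr9:37538131-37538137 on the plus strand for *Esam* (mm10). A match of letters is a description of the sequence and not a measured site.

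The 10 genes lie on 5 chromosomes of mm10, and 5 of them are on chromosome 1. *Fcgr2b* (chr1:170958617-170976547), *Fcgr3* (chr1:171051174-171064935), *Cd48* (chr1:171682009-171705258) and *Slamf1* (chr1:171767127-171801184) are neighbours there, and *Cd34* (chr1:194938819-194961279) lies apart from them. *Eng* (chr2:32646595-32682669) and *Procr* (chr2:155751117-155755471) are on chromosome 2, *Kit* (chr5:75574916-75656722) is on chromosome 5, *Esam* (chr9:37528078-37538319) is on chromosome 9 and *Ly6a* (chr15:74994877-74998031) is on chromosome 15. The antisense gene *Gm16897* shares 148 exonic bases with *Cd34*, and *Fpgs* shares 61 with *Eng* on the opposite strand. In every library the counts of *Gm16897* were between 8.39 and 12.2 per 100 counts of *Cd34*, and reads of the shared bases could belong to either gene.

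Libraries held 3647318 to 5965155 counts on genes (median 4918631). Every CMP library with a *Spehd* shRNA held more counts than every CMP library with *Renilla* shRNA. Megakaryocyte-erythroid markers marked the CMPs and stem cell markers the LSK cells. The summed level of 8 megakaryocyte-erythroid genes was 1871 to 2330.5 CPM (counts scaled to a common library size, with TMM-scaled library sizes) in CMPs and 845 to 1259 in LSK cells, and that of 8 stem cell genes was 690 to 1120 CPM in CMPs and 1213 to 1904 in LSK cells, so neither sum overlapped between the cell types. The 2 CMP libraries with sh20 differed from each other in several of the 10 genes: B against C held 446 against 641 CPM of *Kit*, 9.83 against 1.58 of *Ly6a*, 2.03 against 8.25 of *Fcgr2b* and 9.83 against 26.7 of *Slamf1*. LSK sh10 replicate B stood apart in *Kit*, at 395 CPM against 733 or more in the other LSK libraries. In these bulk samples, fewer cells of a type and less RNA per cell cannot be told apart.

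The RNA of *Ly6a* and *Procr* separated the populations most. With *Renilla* shRNA, CMPs held 9.75-fold less *Ly6a* and 7.16-fold less *Procr* RNA than LSK cells did, and *Fcgr3*, *Fcgr2b*, *Cd34* and *Cd48* were also lower. *Kit*, *Slamf1*, *Esam* and *Eng* did not pass the threshold. The threshold was an adjusted p of 0.05 from edgeR (quasi-likelihood), with p-values corrected by Benjamini-Hochberg across the 15066 genes of the fit. Of the 10 genes 6 passed it, 6 lower in CMPs and 0 higher. Of all genes 19.8% passed in either direction and 8.73% passed as lower in CMPs. The median log2 fold change was -0.58 over the 10 genes and -0.02 over all genes.

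**Figure D1:**
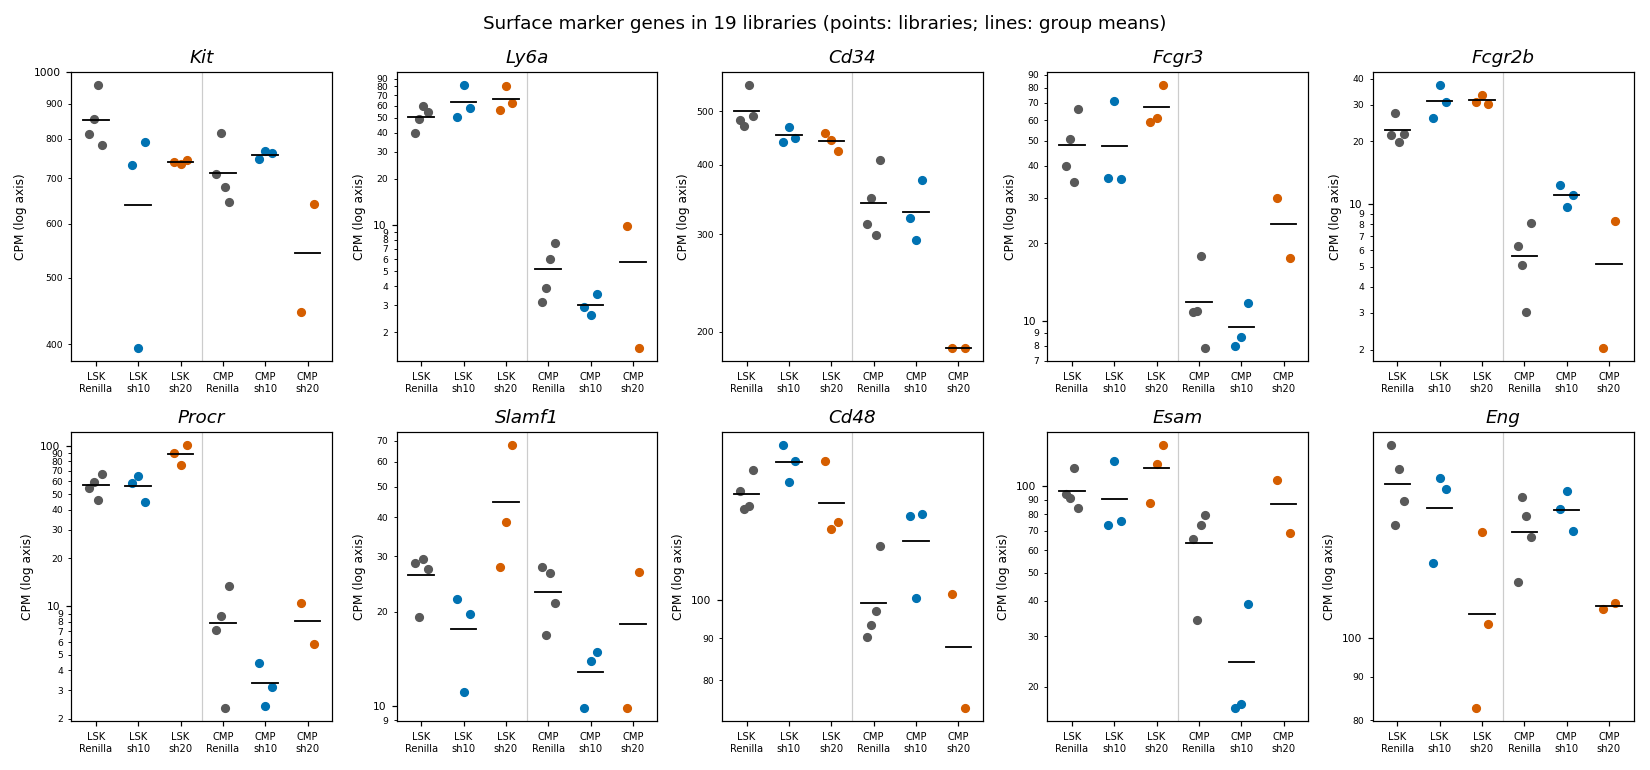
CPM of each of the 10 surface marker genes (log axis, a scale for each panel) in the 19 libraries, by cell type and shRNA. Points are libraries and lines are group means. For *Ly6a*, *Cd34*, *Fcgr3*, *Fcgr2b* and *Procr* every CMP library lies below every LSK library, with *Ly6a* at 1.58 to 9.83 CPM in CMPs and 39.9 to 81.7 in LSK cells.

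*Ly6a* stood at 39.9, 48.8, 60.01 and 54.8 CPM in the LSK libraries A to D with *Renilla* shRNA and at 3.16, 3.90, 6.03 and 7.61 CPM in the CMP libraries. The groups did not overlap, and the highest CMP library was far under the lowest LSK library. The log2 fold change of CMPs against LSK cells was -3.29 (SE 0.39, adjusted p = 2.35e-05 in edgeR). The RNA was still counted in every CMP library, with 12 to 31 counts each in the *Renilla* group.

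*Procr* stood at 54.5, 59.9, 45.8 and 66.7 CPM in LSK libraries A to D and at 7.11, 8.77, 2.32 and 13.5 CPM in CMP libraries A to D, with a log2 fold change of -2.84 (SE 0.35, adjusted p = 3.21e-05 in edgeR). The groups did not overlap. EPCR was in the stain for the donor HSCs and not in the stain for LSK cells and CMPs.

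The receptors for IgG followed. *Fcgr3* stood at 39.7, 50.8, 34.6 and 66.5 CPM in LSK libraries and at 10.8, 10.97, 17.9 and 7.85 CPM in CMP libraries with *Renilla* shRNA (log2 fold change -2.01, SE 0.31, adjusted p = 0.000259 in edgeR). *Fcgr2b* stood at 21.6, 27.5, 19.9 and 21.6 CPM in LSK libraries and at 6.32, 5.12, 3.02 and 8.10 CPM in CMP libraries (log2 fold change -2.01, SE 0.34, adjusted p = 0.000638 in edgeR). Both genes were thus about 4.0-fold lower in CMPs, and neither overlapped between the groups. Other myeloid markers moved with them. Of 8 granulocyte-monocyte progenitor genes 7 were lower in these CMPs, of 6 mast cell and basophil genes 5 were lower, and of 7 tested of 8 neutrophil genes 6 were lower. The mast cell and basophil genes summed to 125 to 182 CPM in CMPs and 357 to 737 in LSK cells with *Renilla* shRNA, and the neutrophil genes to 1.95 to 10.3 and 4.44 to 312 CPM. The defining neutrophil gene *Ly6g* was at 0 in all 9 CMP libraries and the mast cell gene list had no member at 0. Their part in the levels of the receptors was not tested.

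*Cd34* and *Cd48* differed less. *Cd34* stood at 482, 470.0, 558 and 491 CPM in LSK libraries and at 313, 348, 299 and 408 CPM in CMP libraries with *Renilla* shRNA, which did not overlap (log2 fold change -0.55, SE 0.09, adjusted p = 0.000638 in edgeR). *Cd48* stood at 136, 129, 130.1 and 144 CPM in LSK libraries and at 90.3, 93.3, 96.99 and 116 CPM in CMP libraries (log2 fold change -0.44, SE 0.12, adjusted p = 0.0143 in edgeR). The call of *Cd48* was lost without CMP *Renilla* replicate A, CMP *Renilla* replicate B or LSK *Renilla* replicate D, with adjusted p = 0.0614, 0.0526 and 0.0564.

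The other 4 genes did not pass the threshold. *Kit* stood at 813, 854, 958 and 783 CPM in LSK libraries and at 711, 814, 680 and 646 CPM in CMP libraries, and the groups overlapped. Its log2 fold change was -0.26, with a 95% interval of -0.59 to 0.07 (adjusted p = 0.273 in edgeR). The intervals were -0.87 to 0.51 for *Slamf1*, -1.22 to 0.00 for *Esam* and -0.46 to 0.08 for *Eng*. For *Esam* the libraries of the groups did not overlap, with 84.2 to 116 CPM in LSK cells and 34.1 to 79.8 in CMPs, which holds for 31.1% of all genes in either direction, and its adjusted p was 0.153.

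With a *Spehd* shRNA in both populations, 6 genes were again lower in CMPs and 0 higher. With sh10 these were *Ly6a* (log2 fold change -4.37), *Procr* (-4.07), *Fcgr3* (-2.33), *Esam* (-1.89), *Fcgr2b* (-1.51) and *Cd34* (-0.46), against 16.1% of all genes called in either direction and 8.58% called lower. With sh20 they were *Ly6a* (-3.52), *Procr* (-3.44), *Fcgr2b* (-2.61), *Fcgr3* (-1.50), *Cd34* (-1.24) and *Cd48* (-0.58), against 14.6% of all genes in either direction and 8.64% lower. *Ly6a*, *Procr*, *Fcgr3*, *Fcgr2b* and *Cd34* were called lower with every shRNA. Counted by library, 7 of the 10 genes lay lower in CMPs without overlap with sh10 and 8 with sh20, where 39.5% and 37.2% of all genes do not overlap in either direction. Leaving out CMP sh10 replicate B ended the sh10 calls of *Cd34* and *Fcgr2b* (adjusted p = 0.0549 and 0.0563). The sizes with sh20 rest on its CMP libraries. *Ly6a* moved to -5.35 without CMP sh20 replicate B and to -2.74 without CMP sh20 replicate C, and *Fcgr2b* to -1.92 and -3.93. Each of these fits leaves a single CMP sh20 library, so the spread comes from the other groups. For sh20, *Fcgr3* lost its call without CMP sh20 replicate C or LSK sh20 replicate C (adjusted p = 0.104 and 0.0557) and *Cd48* without CMP sh20 replicate C or LSK sh20 replicate A (adjusted p = 0.173 and 0.0601).

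**Figure D2:**
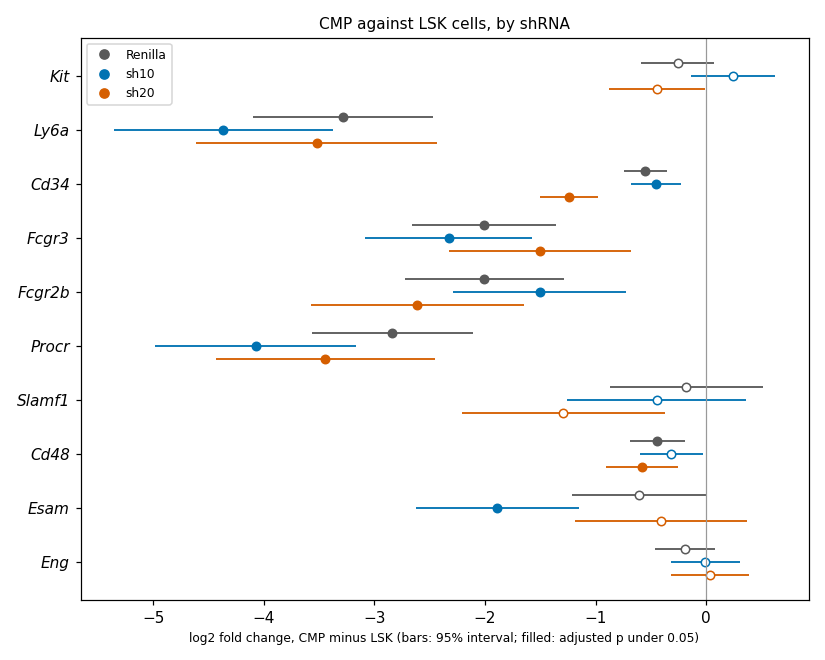
Log2 fold change of CMPs against LSK cells for each of the 10 genes with *Renilla* shRNA, sh10 or sh20, with 95% intervals from edgeR; filled points have an adjusted p under 0.05. *Ly6a* runs from -3.29 to -4.37 and *Procr* from -2.84 to -4.07, and *Kit* and *Eng* lie around 0.

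Over all 19 libraries, 5 of the 10 genes had every one of the 9 CMP libraries below every one of the 10 LSK libraries, and 0 had the reverse, where 2.97% of all genes tested are lower without overlap and 6.25% do not overlap in either direction. These genes were *Ly6a*, *Cd34*, *Fcgr3*, *Fcgr2b* and *Procr*. *Cd34* reached 187 to 408 CPM in CMPs (median 313) and 424 to 558 in LSK cells (median 462). *Fcgr3* reached 7.85 to 30.0 CPM (median 10.97) and 34.6 to 82.1 (median 54.99), *Fcgr2b* 2.03 to 12.4 (median 8.10) and 19.9 to 37.3 (median 28.9), and *Procr* 2.32 to 13.5 (median 5.79) and 44.8 to 101 (median 62.4). The ranges of *Kit*, *Slamf1*, *Cd48*, *Esam* and *Eng* overlapped. The medians of *Kit* were 711 CPM in CMPs and 764 in LSK cells, and those of *Eng* were 134 and 141.

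Ratios of genes within a library do not depend on how libraries are scaled, and they set the antigens of a gate against each other. *Ly6a* had 0.25 to 2.20 counts per 100 counts of *Kit* in CMP libraries and 4.91 to 20.7 in LSK libraries. The highest value came from LSK sh10 replicate B, the library with the fewest *Kit* counts among LSK libraries. *Fcgr3* and *Fcgr2b* together had 3.91 to 6.99 counts per 100 of *Cd34* in CMPs with *Renilla* shRNA, 6.06 to 6.36 with sh10, and 13.8 and 17.1 in the libraries with sh20. The sh20 CMP libraries thus lay above the other CMP libraries and within the range of LSK cells, which was 9.78 to 26.5.

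**Figure D3:**
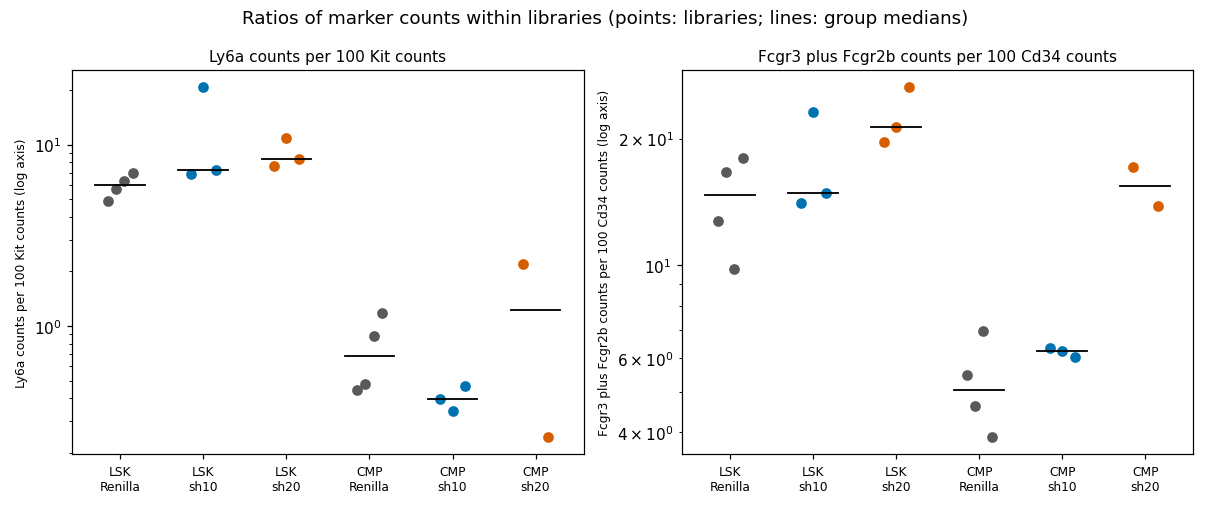
Counts of *Ly6a* per 100 counts of *Kit* (left) and of *Fcgr3* plus *Fcgr2b* per 100 counts of *Cd34* (right) in each library, on log axes, with lines at the group medians. The left ratio splits CMPs (at most 2.20) from LSK cells (at least 4.91), and in the right one CMPs with sh20 lie at 13.8 and 17.1, above the other CMP libraries.

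Whether the step from LSK cells to CMPs differed with *Spehd* knockdown was tested as a difference of differences. For sh10 against *Renilla*, 0 of the 10 genes passed and 2 had an unadjusted p under 0.05 in edgeR, *Esam* (difference of log2 fold changes -1.28, SE 0.45, adjusted p = 0.634) and *Procr* (-1.23, SE 0.53, adjusted p = 0.639), where 0.0199% of all genes passed and 7.76% had such a p. DESeq2 called 0. For sh20 against *Renilla*, 0 passed in edgeR and 1 had an unadjusted p under 0.05, where 0.584% of all genes passed and 13.8% had such a p. That gene was *Cd34*, with a difference of -0.69 (SE 0.15, 95% interval -1.01 to -0.37) and an adjusted p = 0.0503. DESeq2 called 1 gene, *Cd34*, with an adjusted p = 0.00922.

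Within CMPs, *Cd34* was 1.81-fold lower with sh20 than with *Renilla* shRNA, and sh10 did not share this. It stood at 187.2 and 187.0 CPM in sh20 libraries B and C, at 321, 292 and 376 CPM in sh10 libraries A to C and at 313, 348, 299 and 408 CPM in *Renilla* libraries A to D. Both sh20 libraries lay below every other CMP library, and sh10 libraries lay within or just under the *Renilla* range. The log2 fold change of sh20 against *Renilla* was -0.85 (SE 0.13, adjusted p = 0.00971 in edgeR), the only call among the 10 genes, where 6.17% of all genes tested passed. That of sh10 against *Renilla* was -0.06, with a 95% interval of -0.31 to 0.20 (adjusted p = 0.833). sh20 was also lower than sh10 (log2 fold change -0.80, SE 0.14, adjusted p = 0.0155). With the total counts of each library as a covariate the fold change of sh20 against *Renilla* was -0.48 (SE 0.57, adjusted p = 1). The sh20 libraries held the most counts of the CMP libraries, so depth and sh20 cannot be told apart there. The call of *Cd34* for sh20 against *Renilla* was also lost with the replicate letter as a block.

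*Esam* differed between the *Spehd* shRNAs in CMPs. It stood at 16.8, 17.5 and 39.1 CPM in sh10 libraries, at 65.8, 34.1, 73.6 and 79.8 CPM in *Renilla* libraries and at 106 and 68.7 CPM in sh20 libraries. Every sh20 library lay above every sh10 library, and *Renilla* libraries overlapped both. sh20 was 3.61-fold above sh10 (log2 fold change 1.85, SE 0.43, adjusted p = 0.0379 in edgeR). With total counts as a covariate both calls between the shRNAs were lost, with log2 fold changes of -0.64 (SE 0.27, adjusted p = 0.547 in edgeR) for *Cd34* and 1.91 (SE 0.88, adjusted p = 0.607) for *Esam*. Against *Renilla* the fold changes of *Esam* did not pass, with -1.38 for sh10 (SE 0.38, adjusted p = 0.0846) and 0.47 for sh20 (SE 0.39, adjusted p = 0.503). Of the 10 genes 2 passed between the shRNAs, *Cd34* and *Esam*, against 6.41% of all genes. DESeq2 called 5 of the 10 there, with *Kit* (adjusted p = 0.0140), *Fcgr3* (0.0245) and *Eng* (0.0415) added, and 1982 of all genes where edgeR called 886.

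The libraries that decide these calls were followed one at a time. The call of *Cd34* for sh20 against *Renilla* held without any 1 of the 9 CMP libraries. Between sh20 and sh10 both calls were lost without CMP sh10 replicate A (adjusted p = 0.0601 for *Cd34* and 0.126 for *Esam* in edgeR), and that of *Esam* was also lost without CMP sh10 replicate B (0.128), CMP sh20 replicate B (0.0790), CMP *Renilla* replicate A (0.0583) or CMP *Renilla* replicate C (0.0508). Without CMP sh20 replicate C, which leaves 1 library in that arm and assumes that it varies like the other groups, 4 of the 10 genes passed against *Renilla* and 6 against sh10. In the same fits 3191 and 3484 of all genes passed, against 853 and 886 with every library in. The added members against *Renilla* were *Kit* (log2 fold change -0.65), *Fcgr3* (1.35) and *Slamf1* (-1.21).

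Lymphoid and megakaryocytic genes also differed between these CMP groups. Of 8 B and T cell genes 5 were tested, and *Cd3e*, *Cd3d* and *Cd3g*, subunits of the T cell receptor complex, were lower with sh10 than with *Renilla* and higher with sh20 than with sh10. *Cd3e* stood at 12.4 ± 3.43 CPM (SD, n = 4) with *Renilla*, 0.559 ± 0.529 (n = 3) with sh10 and 22.8 ± 15.4 (n = 2) with sh20. The whole list summed to 54.6 to 113 CPM with *Renilla*, 24.9 to 38.4 with sh10 and 172 to 177 with sh20, with the B cell marker *Ms4a1* at 0 in both sh20 libraries. Of 8 megakaryocyte-erythroid genes 1 was higher with sh20 than with sh10, the platelet glycoprotein gene *Gp9* (log2 fold change 1.73, adjusted p = 0.0129 in edgeR). *Gp9* stood at 63.6 ± 19.4 CPM with *Renilla* (n = 4), 27.5 ± 3.87 with sh10 (n = 3) and 90.3 ± 2.73 with sh20 (n = 2). The median log2 fold change of the list for sh20 against sh10 was -0.05. The megakaryocyte gene *Pf4* stood at 109 ± 16.0 CPM with *Renilla* (n = 4), 76.4 ± 7.67 with sh10 (n = 3) and 97.8 ± 3.20 with sh20 (n = 2), and the erythroid genes *Klf1* (log2 fold change -0.39) and *Car1* (-0.49) were lower with sh20 than with *Renilla*. That list summed to 2143 to 2330.5 CPM with *Renilla*, 1871 to 1944 with sh10 and 1905 to 1952 with sh20, with no member at 0. The 7 endothelial genes summed to 176 to 265 CPM with *Renilla*, 180.5 to 231 with sh10 and 177 to 190.1 with sh20. The endothelial gene *Cldn5* was at 0 in all CMP libraries. *Cdh5* was at 0 in those with sh10 or sh20 and at most 0.487 CPM in those with *Renilla*. The part of other cell types in *Cd34* and *Esam* was not tested.

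The other 8 genes did not pass in CMPs in edgeR. With sh10 against *Renilla*, 0 of the 10 passed in edgeR, where 1.97% of all genes did. There 2 had an unadjusted p under 0.05, as 21.2% of all genes did, *Esam* and *Slamf1*, and DESeq2 called 1, *Esam* (adjusted p = 0.00526). *Slamf1* stood at 9.89, 13.9 and 14.8 CPM with sh10, below every *Renilla* library (16.8 to 27.6 CPM), with a log2 fold change of -0.85 (SE 0.36, adjusted p = 0.212 in edgeR). *Fcgr2b* stood at 12.4, 9.65 and 11.1 CPM with sh10, above every *Renilla* library, with a log2 fold change of 0.97 (SE 0.49, adjusted p = 0.298 in edgeR). Of the 10 genes 2, *Slamf1* and *Fcgr2b*, were without overlap here, where 23.8% of all genes do not overlap.

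With sh20 against *Renilla*, *Kit* and *Eng* were without overlap and did not pass. *Kit* stood at 446 and 641 CPM with sh20, below every *Renilla* library (646 to 814), and *Eng* at 108 and 110.1 CPM, below 117 to 147. With *Cd34*, these were 3 genes without overlap, all lower, where 28.4% of all genes do not overlap. The log2 fold changes of *Kit* and *Eng* were -0.38 (SE 0.13, adjusted p = 0.113 in edgeR) and -0.28 (SE 0.10, adjusted p = 0.140 in edgeR). *Fcgr3* stood at 30.0 and 17.6 CPM against 7.85 to 17.9 with *Renilla* and overlapped by 1 library (log2 fold change 1.01, SE 0.37, adjusted p = 0.129 in edgeR). Between sh20 and sh10, *Kit*, *Cd34*, *Fcgr2b* and *Eng* were lower and *Fcgr3*, *Procr* and *Esam* higher without overlap, where 41.3% of all genes do not overlap with 2 and 3 libraries.

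With both *Spehd* shRNAs taken as 1 group of 5 CMP libraries, 0 of the 10 genes passed against *Renilla* in edgeR, 0 had an unadjusted p under 0.05 and DESeq2 called 0, where 0.116% of all genes passed and 16.6% had an unadjusted p under 0.05. By library, 0 of the 10 did not overlap, where 8.29% of all genes do not. The fold change of *Cd34* was then -0.33 (SE 0.20, adjusted p = 0.467) and that of *Esam* -0.34 (SE 0.52, adjusted p = 0.826). The sh10 and sh20 groups share the same *Renilla* libraries, so their comparisons with it are not independent.

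**Figure D4:**
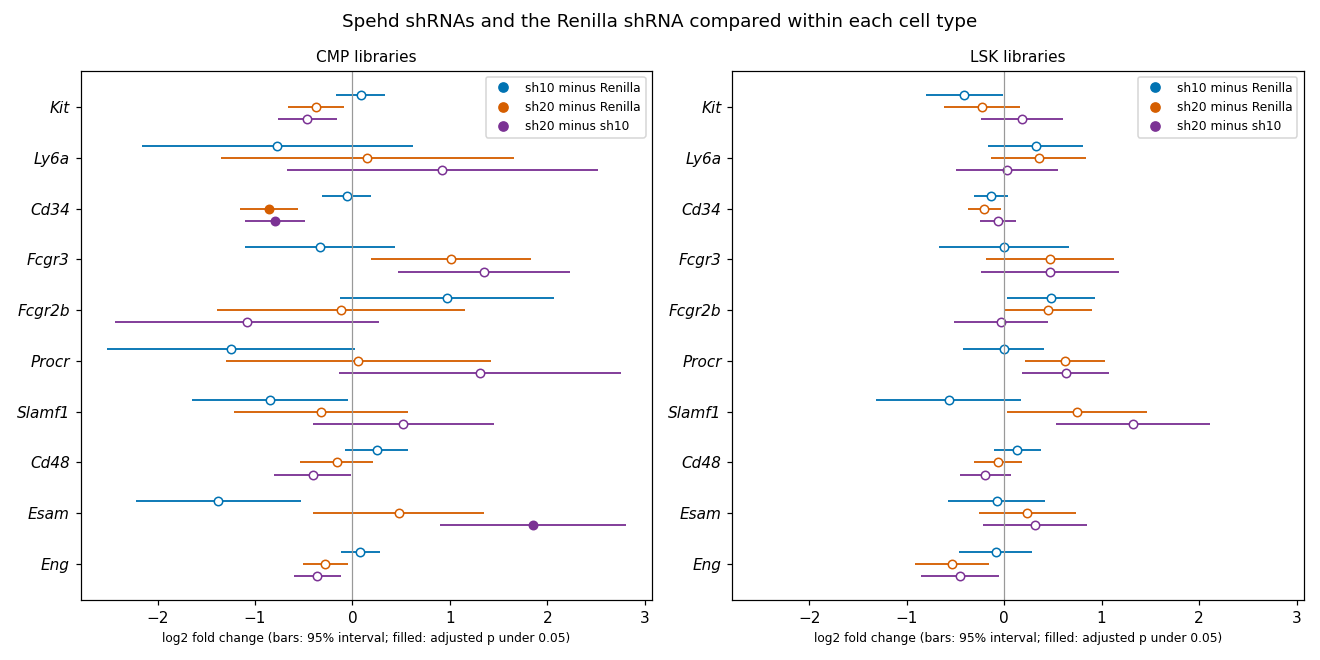
Log2 fold changes between shRNAs within CMPs (left) and LSK cells (right) for the 10 genes, with 95% intervals from edgeR; filled points have an adjusted p under 0.05. The filled points are *Cd34* against both other groups with sh20 in CMPs (-0.85 and -0.80) and *Esam* between sh20 and sh10 (1.85), and no point is filled for LSK cells.

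In LSK cells 0 of the 10 genes passed in any of the 4 comparisons in edgeR, and the share of all genes that passed was 0%. For sh10 against *Renilla* 2 of the 10 had an unadjusted p under 0.05 (3.30% of all genes), for sh20 against *Renilla* 5 (8.33%), for sh20 against sh10 3 (9.17%), and for both shRNAs together 2 (3.66%). DESeq2 called 0, 0, 1 and 0 in that order, the 1 gene being *Slamf1* (adjusted p = 0.0330), and of all genes it called 3, 195, 256 and 0.

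*Procr*, *Slamf1* and *Esam* had their highest group means in LSK cells with sh20, and so did *Ly6a*, *Fcgr3* and *Fcgr2b*. The median log2 fold change of 8 stem cell genes for sh20 against *Renilla* in LSK cells was -0.08, and the stem cell transcription factor gene *Hlf* stood at 167 ± 13.7 CPM with sh20 (n = 3) and 267 ± 28.8 with *Renilla* (n = 4). *Procr* stood at 90.1, 76.3 and 101 CPM with sh20, at 58.9, 64.9 and 44.8 with sh10 and at 45.8 to 66.7 with *Renilla*. Every sh20 library lay above every other LSK library, while sh10 and *Renilla* overlapped. Against *Renilla* the log2 fold change was 0.63 (SE 0.19, adjusted p = 0.348 in edgeR). *Slamf1* stood at 27.8, 38.5 and 67.8 CPM with sh20, at 21.9, 11.1 and 19.7 with sh10 and at 19.3 to 29.5 with *Renilla*. The groups with sh20 and sh10 did not overlap, where 13.0% of all genes do not, and sh20 overlapped *Renilla*. Between sh20 and sh10 its log2 fold change was 1.32 (SE 0.36, adjusted p = 0.238 in edgeR), with 67.8 CPM from a single library as the highest value.

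Of the other genes in LSK cells, *Eng* stood at 82.6, 134 and 104 CPM with sh20 against 136 to 169 with *Renilla* (log2 fold change -0.54, SE 0.17, adjusted p = 0.380 in edgeR). *Cd34* lay lower in every *Spehd* library (424 to 468 CPM) than in every *Renilla* library (470.0 to 558), with a log2 fold change of -0.17 for both shRNAs together (SE 0.07, adjusted p = 0.998 in edgeR). It was the only 1 of the 10 genes without overlap there, where 0.896% of all genes do not overlap. For sh10 against *Renilla* *Cd34* was again the 1 gene without overlap, where 6.52% of all genes do not overlap. *Kit* and *Cd34* were also without overlap for sh20 against *Renilla*, as were *Eng*, *Fcgr2b* and *Procr*, where 11.9% of all genes do not overlap. *Ly6a* was 0.33 above *Renilla* with sh10 and 0.36 above with sh20 on the log2 scale, with 95% intervals of -0.16 to 0.81 and -0.13 to 0.84.

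Ordered by group mean, *Ly6a*, *Cd34*, *Fcgr3*, *Fcgr2b* and *Procr* each had the 3 LSK groups above the 3 CMP groups. The lowest LSK group and the highest CMP group did not overlap for any of these 5. Within the LSK groups neighbours overlapped for *Ly6a*, *Fcgr3* and *Fcgr2b*. For *Cd34* LSK cells with *Renilla* (500.2 ± 39.2 CPM, n = 4) did not overlap those with sh10 (452 ± 14.1, n = 3), with 470.0 CPM as the lowest and 468 as the highest library, and CMPs with sh10 (329 ± 42.3, n = 3) did not overlap those with sh20 (187 ± 0.162, n = 2). *Slamf1* and *Esam* had neighbours that overlapped at every place in the order. For *Slamf1* the neighbours LSK *Renilla* (26.2 ± 4.67 CPM, n = 4) and CMP *Renilla* (23.1 ± 4.98, n = 4) differed with p = 0.429 in a two-sided exact permutation test. *Cd48* overlapped between all neighbours, from 147 ± 7.47 CPM in LSK cells with sh10 (n = 3) to 87.9 ± 19.7 in CMPs with sh20 (n = 2).

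Levels were also divided by the length of all annotated exons of a gene together, from 1189 bases for *Cd48* to 8911 for *Kit*. That length can exceed the transcripts expressed, so the order of the genes depends on it. In LSK cells the median level was highest for *Cd48* at 116 CPM per kilobase, then *Kit* at 85.7, *Cd34* at 63.4 and *Ly6a* at 47.2, and lowest for *Fcgr2b* at 4.99 and *Slamf1* at 4.49. In CMPs *Cd48* at 84.7, *Kit* at 79.8 and *Cd34* at 42.9 CPM per kilobase again led, while *Ly6a* was at 2.95 and *Procr* at 2.85. *Fcgr3* exceeded *Fcgr2b* per kilobase in both, with 31.7 against 4.99 in LSK cells and 6.32 against 1.40 in CMPs. By this measure RNA for CD48, which is negative in the sort of donor HSCs, was the most abundant of the 10 in LSK cells. That gate also holds multipotent progenitors. Before division by length the medians in LSK cells were 138 CPM for *Cd48* and 764 for *Kit*.

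Across the 19 libraries *Ly6a* and *Procr* followed each other most closely among pairs of the 10 genes (Pearson r = 0.943 of log2 CPM), and *Ly6a* and *Fcgr3* came next (0.902). The libraries fall into LSK cells and CMPs, and over deviations from the group means r was 0.247 and 0.409. Genes with the most similar profiles over all tested genes were *Krt18*, *Gstm1* and *Cd27* for *Ly6a* (r from 0.966 to 0.970), *Gm16897* and *Igfbp4* for *Cd34* (0.965 and 0.955) and *Fcgrt*, *Dusp6* and *Dhrs7* for *Fcgr3* (0.952 to 0.956). For *Procr* they were *Rtp4*, *Maged1* and *Fam69b* (0.951 to 0.954) and for *Fcgr2b* *Gm10392*, *Shmt1* and *Adssl1* (0.945 to 0.949). For *Esam* they were the junctional adhesion gene *F11r*, *Rhof* and the endothelial receptor gene *Tie1* (0.940 to 0.953), and for *Eng* *Smad7*, *Gatad1* and *Wdtc1* (0.861 to 0.895). *Kit* was nearest *Ifih1*, *Casd1* and *Ap3b1* (0.895 to 0.928), *Slamf1* nearest *Gm20559*, *Khdrbs3* and *Fhl1* (0.859 to 0.903) and *Cd48* nearest *BC035044*, *Tm6sf1* and *Rufy1* (0.933 to 0.944). *Gm16897* shares bases with *Cd34*, so its place there is not independent.

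Relatives of the 10 genes were counted by family for CMPs against LSK cells with *Renilla* shRNA. Of all genes in that comparison 19.8% were called in either direction and 8.73% lower, and families of a few genes cannot be set firmly against these shares. Of 8 tested SLAM family genes 1 was lower, *Cd48*, and 0 were higher. Of 5 genes for Fc gamma receptors and their signalling chain 2 were lower, *Fcgr3* and *Fcgr2b*, and of 5 tested Ly6 family genes 2 were lower, *Ly6a* and the monocyte antigen gene *Ly6c2* (log2 fold change -2.24). Of 6 endoglin receptor complex genes 0 passed, and of 3 CD34 family genes 1 was lower, *Cd34*. Of 27 tested other stem and progenitor antigens 5 were higher and 6 lower, with *Epor* (2.56) and *Tfrc* (1.96), receptors for erythropoietin and transferrin, among the higher and *Cd93* (-1.45) among the lower. In CMPs with sh20 against sh10, *Cd38* (2.16) and *Itgb3* (1.85) were among the higher and *Cd44* (-0.75) was lower of those 27, the SLAM gene *Slamf7* was higher (2.92) and the endoglin partner gene *Tgfbr1* was lower (-1.79).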

How the data were processed

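RNA of sorted zsGreen+ LSK cells and CMPs was measured in 19 libraries made with SMART-Seq v4. The authors aligned reads to mm10 with STAR 2.5.2a, removed duplicate alignments with Picard and counted them with HTSeq 0.7.2 on GENCODE vM11. The deposited files hold raw read counts per gene. The methods give default parameters where nothing else is specified, and do not name a strand setting. Rows that name no gene were left out, and 45.4% to 47.4% of uniquely mapped reads fell on genes. Groups came from the labels. CPM used TMM-scaled library sizes.

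Differences were tested with edgeR 4.0.16 in R 4.3.3 (quasi-likelihood test, TMM, filterByExpr with min.count 10 and min.total.count 15, Benjamini-Hochberg adjustment over all tested genes, threshold 0.05, two-sided). CMPs and LSK cells were compared in 1 fit of 6 groups (15066 genes), and shRNAs within each cell type (13824 genes in CMPs, 13828 in LSK cells, 12912 and 13441 with both *Spehd* shRNAs together). The pipeline was tested on simulated data. DESeq2 1.42.0, other size factors, no filter, the replicate letter as a block, total counts as a covariate, a fit of all libraries and leaving out each library were alternatives. All 10 genes are named in each comparison, up to 4 called genes by smallest p from each wider list, and the 3 genes most like each member by Pearson r. Some genes that this rule names are not reported here. The members and lists were chosen with earlier results of these data known. Sequences were searched in GENCODE vM21.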

Additional observations from a re-analysis of the deposited data

Results flagged for a closer look

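The response of *Cd34* to knockdown in CMPs differed between the *Spehd* shRNAs, with a log2 fold change of sh20 against sh10 of -0.80 (adjusted p = 0.0155 in edgeR) and both sh20 libraries below all 3 sh10 libraries. That of *Esam* differed in the other direction, with 1.85 (adjusted p = 0.0379 in edgeR) and both sh20 libraries above all 3 sh10 libraries. Both shRNAs target *Spehd*, and the test compares one with the other directly. Both calls were lost without CMP sh10 replicate A (log2 fold changes -0.81 and 1.65, adjusted p = 0.0601 and 0.126 in edgeR). They were also lost with total counts as a covariate (-0.64 and 1.91, adjusted p = 0.547 and 0.607) and with the replicate letter as a block. The call of *Esam* was further lost without CMP sh10 replicate B, CMP sh20 replicate B, CMP *Renilla* replicate A or CMP *Renilla* replicate C. Over 15 alternatives the fold change ran from -0.87 to -0.64 for *Cd34* and from 1.503 to 2.356 for *Esam*.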

How the results depend on the processing

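Of 244 recomputed counts of called members 218 stayed the same, which meant within 1.5 times the reported count. Where the reported count was 0 it meant that the count stayed 0, and many of the 218 are of this kind. Of 477 recomputed fold changes of called members 456 kept their side of the threshold, 21 lost it and 0 changed sign. Most of these fold changes compare CMPs with LSK cells, so the totals say little about the calls between shRNAs. In CMPs the replicate block left 0 called members for sh20 against *Renilla* and 0 for sh20 against sh10 (*Cd34* -0.78, adjusted p = 0.0905, and -0.81, 0.0612; *Esam* 1.95, 0.109), and changed no other call but *Slamf1*, gained for CMPs against LSK cells with sh20. Same-lettered libraries deviated with correlations of -0.0792 to 0.0444 within a cell type and -0.000694 to 0.21 within a shRNA. Of the 9 pairs within a shRNA 2 were over 0.1. The letters were not read as pairs in the main test. Differently lettered libraries were not set beside these, so the check cannot exclude pairing. Total counts as a covariate also left 0 and 0. Without a filter 1 member passed for the sh10 step difference, 1 for the sh20 step difference, 1 for sh10 against *Renilla* in CMPs and 2 for sh20 against *Renilla*. DESeq2 called 1 for the sh20 step difference, 1 for sh10 against *Renilla* in CMPs, 5 for sh20 against sh10 in CMPs and 1 in LSK cells. The fit of all 19 libraries called 1 for both shRNAs in CMPs. Leaving out 1 library gave 0 to 2 for the sh20 step difference, 0 to 1 for sh10 against *Renilla*, 1 to 4 for sh20 against *Renilla* and 0 to 6 for sh20 against sh10 in CMPs, and 5 to 6, 4 to 6 and 5 to 8 for CMPs against LSK cells with *Renilla*, sh10 and sh20. The causes were not tested. CMPs with sh20 had 2 libraries, and *Ly6a*, *Procr* and *Fcgr2b* rested on as few as 9, 10 and 12 counts in a CMP library.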
